A study of Homo sapiens with 12 samples.

Results

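The genes described here are 8 genes of the endoderm programme: the zinc-finger transcription factors GATA4 and GATA6, the transcription factors SOX17, FOXA1 and FOXA2, the endocytic adaptor DAB2, the chemokine receptor CXCR4 and the secreted serum protein AFP (alpha-fetoprotein). They were taken by symbol, with earlier results of these data known, and are 8 of the 56638 genes in the deposited count table. The study asked which transcripts depend on PRMT6, a protein arginine methyltransferase that modifies histones, in NT2/D1 cells, which are pluripotent human embryonal carcinoma cells from a germ cell tumour. RNA-seq was made from 12 libraries in 4 groups of 3. The first group is NT2/D1 labelled as CRISPR/Cas9 control and left untreated, and the second is the same control given ATRA (all-trans retinoic acid) at 1 µM over 3 days. The third is NT2/D1 in which PRMT6 was deleted with CRISPR/Cas9, left untreated, and the fourth is the same knockout given ATRA in the same way. All 6 knockout libraries carry the same line name, KO-2, so they represent 1 knockout line, and how the control was made is not given in the sources used here. Separate cultures are not named in the labels, so the p-values below rest on differences among libraries that may be technical.

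The endoderm is the germ layer that forms the lining of the gut, the liver and the pancreas, while the extraembryonic endoderm forms the yolk sac. GATA4 and GATA6 bind GATA motifs and act early in both lineages, and both also serve heart development. FOXA1, FOXA2 and SOX17 are known as factors of the definitive endoderm. DAB2 and AFP mark extraembryonic endoderm and its secretory products, and CXCR4 is used to sort definitive endoderm but is also found on many other cells. Retinoic acid acts through nuclear receptors and is the classical agent that makes embryonal carcinoma cells differentiate.

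In untreated cells, GATA4 was 56.2-fold, GATA6 12.4-fold and DAB2 3.21-fold higher in the knockout than in the control. SOX17 was 12.5-fold higher on 64 against 10 counts, and it was tested only because the untreated knockout was high. With ATRA, GATA4 was 22.6-fold higher in the knockout, and no other member passed the test. GATA6 with ATRA was above 15 CPM in 2 of 3 control and all 3 knockout libraries, and SOX17 with ATRA was at or near 0 in both. FOXA1 and FOXA2 gave too few counts to be tested, and CXCR4 and AFP did not pass the test in any comparison.

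Libraries held 25.5 to 60.4 M counts, so that 3 counts make 0.128 CPM (counts per M counts) in the smallest and 0.0433 CPM in the largest. CPM values are given on library sizes scaled by TMM, a method that balances the samples' composition. The targeted gene checked the labels: PRMT6 was at 22.4, 1.94 and 8.94 CPM in the untreated control, at 29.9, 15.9 and 26.8 CPM in the control with ATRA, and had 2 counts in all in each knockout group. The labelled cell type was checked by 11 markers of embryonal carcinoma cells, which were all above a mean of 1 CPM in each group and summed to 2521 to 8722 CPM per library. Several libraries stood apart from their groups. Libraries 1 and 3 of the knockout with ATRA were nearly alike, with a chi-square of their counts of 1.91 per gene, where counting noise alone would give about 1. Libraries 1 and 2 of the untreated knockout came next at 9.01, while the other pairs within a group differed by 78.1 to 416. Untreated knockout library 3 and knockout ATRA library 2 were therefore each the odd library of their group. Control ATRA library 2 was closer to untreated control library 3 (root mean square log2 difference 0.779) than to control ATRA libraries 1 and 3 (1.07 and 1.10).

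**Figure D1:**
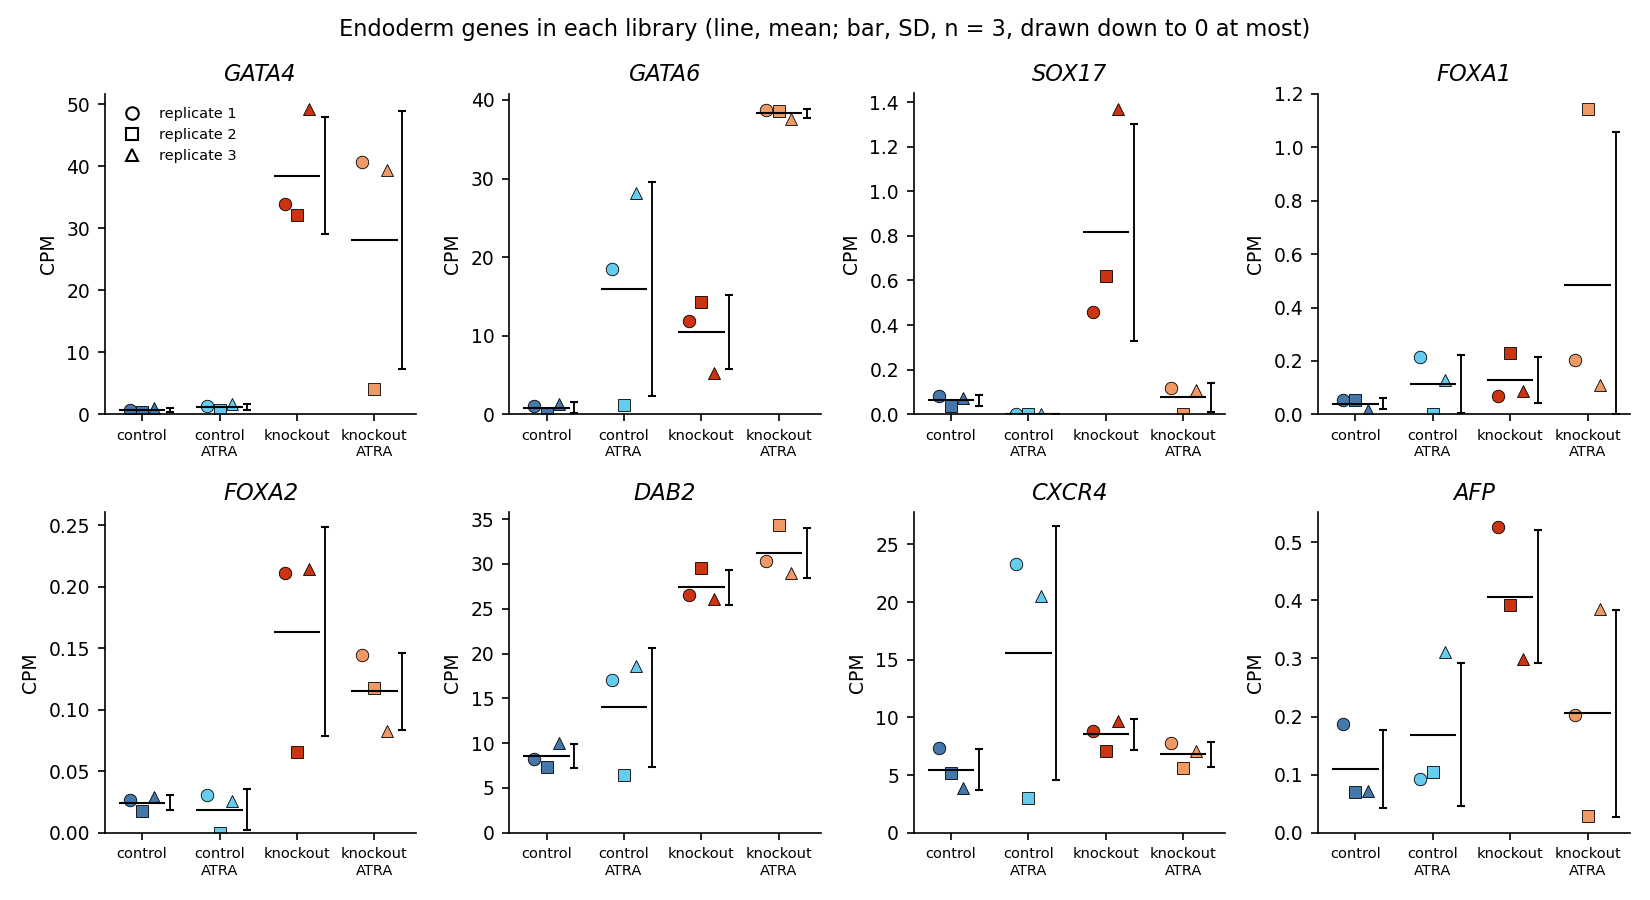
Levels of the 8 endoderm genes in CPM (vertical axis, linear, starting at 0, scaled for each gene) in the 4 groups (horizontal axis); each point is a library, the line is the mean and the bar is the SD (n = 3), drawn down to 0 at most. GATA4 lay at 0.335 to 1.66 CPM in the 6 control libraries and at 4.08 to 49.3 CPM in the 6 knockout libraries. SOX17, FOXA1, FOXA2 and AFP stayed at or below 1.37 CPM throughout.

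GATA4, a factor that opens chromatin and activates endoderm and heart genes, was the member with the largest difference between genotypes. In the untreated control it was at 0.641, 0.335 and 1.05 CPM in libraries 1, 2 and 3 (0.676 ± 0.360, mean ± SD, n = 3). In the untreated knockout it was at 34.0, 32.2 and 49.3 CPM (38.5 ± 9.40, SD, n = 3). The lowest knockout library was thus far above the highest control library. The log2 difference was 5.81 ± 0.79 (fitted value ± SE), with an adjusted p of 0.00186 in edgeR's quasi-likelihood test with Benjamini-Hochberg adjustment over 19130 genes. Of all genes tested in this comparison 34.9% were called at an adjusted p under 0.05, 13% as higher in the knockout and 21.9% as lower.

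With ATRA, GATA4 was at 1.35, 0.702 and 1.66 CPM in the control (1.24 ± 0.489, SD, n = 3) and at 40.8, 4.08 and 39.3 CPM in the knockout (28.1 ± 20.8, SD, n = 3). Knockout ATRA library 2 was about 10 times lower than its group's other libraries and still above every control library. The log2 difference between genotypes was 4.50 ± 0.75 (edgeR adjusted p = 0.0076), against 7.51% of all genes called, 3.27% as higher and 4.24% as lower. With the nearly alike knockout libraries summed into 1 library each, this difference was 4.16 with an adjusted p of 0.0641, past the threshold no longer. ATRA itself gave a log2 difference of 0.86 ± 0.70 in the control (edgeR adjusted p = 0.510) and of -0.46 ± 0.64 in the knockout (edgeR adjusted p = 0.870). Ordered by mean, GATA4 ran from untreated control through control with ATRA and knockout with ATRA to untreated knockout. Of these neighbouring steps only that from control with ATRA to knockout with ATRA passed the edgeR test.

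GATA6, the relative of GATA4 that acts at the start of extraembryonic endoderm formation, differed between genotypes and was also higher with ATRA in most libraries. In the untreated control it was at 1.09, 0.106 and 1.34 CPM (0.847 ± 0.654, SD, n = 3), and in the untreated knockout at 11.9, 14.3 and 5.27 CPM (10.5 ± 4.68, SD, n = 3). The groups did not overlap, and the odd knockout library was the lowest of its group here, whereas it was the highest for GATA4. The log2 difference was 3.63 ± 0.96 (edgeR adjusted p = 0.0144). It fell short of the threshold when the nearly alike knockout libraries were summed (3.45, adjusted p = 0.0661).

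In the control with ATRA, GATA6 was at 18.5, 1.17 and 28.1 CPM (15.9 ± 13.7, SD, n = 3), so libraries 1 and 3 were high and library 2 was at the level of untreated cells. In the knockout with ATRA it was at 38.7, 38.6 and 37.6 CPM (38.3 ± 0.596, SD, n = 3), nearly equal in the 3 libraries. The ATRA difference in the control was 4.23 ± 0.98 on the log2 scale, or 18.8-fold, with an edgeR adjusted p of 0.0671. Without control ATRA library 2 it was 4.79 (edgeR adjusted p = 0.00297), without untreated control library 1 it was 4.44 (adjusted p = 0.0393), and without control ATRA library 3 it was 3.55 (adjusted p = 0.155). In the knockout the ATRA difference was 1.87 ± 0.88 (edgeR adjusted p = 0.438), although the lowest library with ATRA was above the highest untreated one, as for 17.2% of all genes. The genotypes with ATRA differed by 1.26 ± 0.86 (edgeR adjusted p = 0.359), again without overlap of the libraries. The test of whether the ATRA difference itself differed between genotypes gave -2.37 ± 1.24 (edgeR adjusted p = 0.538).

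GATA6 has an antisense neighbour, GATA6-AS1, a long noncoding RNA that starts close by on the other strand. The RefSeq starts of both genes lie 621 bases apart on chromosome 18, and in the GENCODE 44 annotation the gene bodies overlap by 290 bases. Their promoter windows are shown because both transcripts were higher in the same libraries. Each window runs from 250 bases before to 50 bases after the RefSeq start (build GRCh38.p14), and the capitals mark the bases from the start onward.
GATA6, chr18:22169339-22169638, plus strand: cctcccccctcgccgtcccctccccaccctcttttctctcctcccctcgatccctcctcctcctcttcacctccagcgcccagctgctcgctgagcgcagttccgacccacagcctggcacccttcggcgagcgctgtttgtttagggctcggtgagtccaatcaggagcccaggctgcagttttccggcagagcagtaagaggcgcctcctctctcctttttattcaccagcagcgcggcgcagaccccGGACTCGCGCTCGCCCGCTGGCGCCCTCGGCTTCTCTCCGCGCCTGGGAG
GATA6-AS1, chr18:22168919-22169218, minus strand: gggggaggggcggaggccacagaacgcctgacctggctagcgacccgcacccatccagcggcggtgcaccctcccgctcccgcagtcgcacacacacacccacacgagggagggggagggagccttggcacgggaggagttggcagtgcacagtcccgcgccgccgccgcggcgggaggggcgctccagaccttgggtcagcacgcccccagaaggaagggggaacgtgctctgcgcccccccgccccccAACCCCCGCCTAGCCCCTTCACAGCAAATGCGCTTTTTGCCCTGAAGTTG
Both windows are rich in G and C, at 66.7% for GATA6 and 71.3% for GATA6-AS1. Neither holds a GATA motif on either strand, taken as GATA with A or T before it and A or G after it, and neither do the windows of FOXA1, DAB2, CXCR4 and AFP. Of 35116 RefSeq promoter windows of 300 bases, 25% hold at least 1. The same windows hold no DR5, the form that retinoic acid receptors bind, on either strand, and 0.0883% of all windows do. It was taken as a direct repeat of AGGTCA with 5 bases between, where the first base could also be G and the third also T.

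GATA6-AS1 was at 0.187, 0 and 0.202 CPM in the untreated control and at 2.39, 2.52 and 0.385 CPM in the untreated knockout. Its log2 difference was 3.76 ± 1.15 (edgeR adjusted p = 0.0249), close in size to that of GATA6. With ATRA it was at 3.35, 0.130 and 4.77 CPM in the control and at 6.32, 7.25 and 7 CPM in the knockout, so the same control library was low. The antisense gene took 13.1% to 16.7% of the summed counts of both genes in 9 of the 12 libraries, and 0, 6.82% and 10% in untreated control library 2, untreated knockout library 3 and control ATRA library 2. These lower shares rest on few antisense counts, 0, 9 and 5, beside 6, 123 and 45 for GATA6. The library kit keeps the strand, but the strand setting of the counting is not given in the sources used here, so reads in the shared stretch cannot be assigned to either gene with certainty. Of the other neighbouring transcripts, LINC00261, which lies beside FOXA2, had 0 to 2 counts per library.

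SOX17, a factor that specifies definitive endoderm and primordial germ cells, gave few counts in every group. It had 3, 2 and 5 counts in the untreated control and 13, 19 and 32 counts in the untreated knockout. In CPM these were 0.0801, 0.0352 and 0.0721 against 0.457, 0.622 and 1.37, and the odd knockout library was the highest. The log2 difference was 3.65 ± 0.77 (edgeR adjusted p = 0.00766). SOX17 passed the filter on low counts only through the untreated knockout libraries, so every difference from that group, between genotypes and with ATRA alike, was a condition of being tested.

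With ATRA, SOX17 had no counts in the 3 control libraries and 4, 0 and 4 counts in the knockout. The knockout was at least 2.79-fold higher when 3 counts over the control group are taken as the floor, and the edgeR adjusted p was 0.0920. Within the knockout, the ATRA libraries were all below the untreated ones, by -3.36 ± 0.79 on the log2 scale or 10.3-fold, with an edgeR adjusted p of 0.135, and 14.7% of all genes were lower without overlap there. In the control, too, the libraries with ATRA were all lower, as for 7.44% of all genes.

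FOXA1 and FOXA2 are pioneer factors that bind closed chromatin in endoderm and liver. FOXA1 had 2, 3 and 1 counts in the untreated control, 2, 7 and 2 in the untreated knockout, 7, 0 and 5 in the control with ATRA, and 7, 39 and 4 in the knockout with ATRA. The 39 counts of knockout ATRA library 2, or 1.14 CPM, stood above the other 11 libraries, of which none had more than 7 counts. FOXA2 had 1, 1 and 2 counts in the untreated control and 6, 2 and 5 in the untreated knockout, then 1, 0 and 1 and 5, 4 and 3 with ATRA. Over each group's summed counts, FOXA2 was 6.46 times higher in the untreated knockout (95% counting interval 1.99 to 27.2) and 6.27 times higher in the knockout with ATRA (1.40 to 57.7). Neither gene passed the filter, and in a fit without the filter FOXA2 had an edgeR adjusted p of 0.0609 in untreated cells and of 0.205 with ATRA, and FOXA1 of 0.293 and 0.154.

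DAB2, an adaptor for the uptake of receptors that is abundant in visceral and parietal endoderm, varied little within both untreated groups. It was at 8.25, 7.34 and 9.99 CPM in the untreated control (8.53 ± 1.35, SD, n = 3) and at 26.5, 29.6 and 26.1 CPM in the untreated knockout (27.4 ± 1.91, SD, n = 3). All knockout libraries, the odd one included, lay close together and above all controls. The log2 difference was 1.68 ± 0.33 (edgeR adjusted p = 0.0053).

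With ATRA, DAB2 was at 17, 6.42 and 18.6 CPM in the control (14.0 ± 6.62, SD, n = 3) and at 30.3, 34.4 and 29.0 CPM in the knockout (31.2 ± 2.81, SD, n = 3). The groups did not overlap, and control ATRA library 2 was again the low one. The genotypes differed by 1.16 ± 0.33 on the log2 scale, with an edgeR adjusted p of 0.0517, just above the threshold. This call changed with 1 library at a time: the adjusted p was 0.0318 without control ATRA library 3, 0.0459 without untreated control library 2 and 0.049997 without untreated control library 1. The untreated control libraries are not in this comparison. Leaving them out changes only the estimate of spread, the scaling and the filter that all groups share. ATRA gave 0.72 ± 0.33 in the control (edgeR adjusted p = 0.239) and 0.19 ± 0.33 in the knockout (edgeR adjusted p = 0.900). Without control ATRA library 2 the control difference was 1.07 (edgeR adjusted p = 0.0109). That difference passed the threshold in 2 of 24 alternative settings.

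CXCR4, the receptor of the chemokine CXCL12, did not follow the GATA genes. It was at 7.37, 5.19 and 3.86 CPM in the untreated control (5.48 ± 1.77, SD, n = 3) and at 8.79, 7.10 and 9.72 CPM in the untreated knockout (8.53 ± 1.33, SD, n = 3). With ATRA it was at 23.3, 3.01 and 20.5 CPM in the control (15.6 ± 11, SD, n = 3) and at 7.77, 5.61 and 7.05 CPM in the knockout (6.81 ± 1.10, SD, n = 3). Libraries 1 and 3 of the control with ATRA were thus the only ones above 10 CPM. The log2 difference between genotypes was 0.64 ± 0.54 in untreated cells (edgeR adjusted p = 0.367) and -1.20 ± 0.55 with ATRA (edgeR adjusted p = 0.174). Without control ATRA library 2, CXCR4 with ATRA was lower in the knockout by -1.69 (adjusted p = 0.0155) and higher with ATRA in the control by 2.01 (adjusted p = 0.00307). Over all genes that omission moved the calls from 1437 to 632 and from 22 to 2419. Of 24 alternative settings, CXCR4 passed the threshold in 2 for the first comparison and 3 for the second. The interaction of genotype and ATRA was -1.84 ± 0.77, with an unadjusted p of 0.0335 and an edgeR adjusted p of 0.509.

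AFP, the fetal serum protein of yolk sac and liver, was close to the limit of detection. It had 7, 4 and 5 counts in the untreated control and 15, 12 and 7 in the untreated knockout, then 3, 4 and 12 in the control with ATRA and 7, 1 and 14 in the knockout with ATRA. In CPM the untreated groups did not overlap, at 0.110 ± 0.0667 and 0.406 ± 0.114 (SD, n = 3). The log2 difference was 1.94 ± 0.75 with an edgeR adjusted p of 0.0598, and it passed the threshold without untreated control library 1 (2.47, adjusted p = 0.0359) and without knockout ATRA library 2 (1.94, adjusted p = 0.0358). Knockout ATRA library 2 is not in this comparison and changes only the spread, scaling and filter that all groups share. With ATRA the genotypes differed by 0.27 ± 0.75 (edgeR adjusted p = 0.844) and overlapped. AFP was above the level of the filter on low counts in 2 untreated knockout libraries and in 1 library of each ATRA group. No untreated control library reached that level, so the test of AFP, too, leaned on the untreated knockout.

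**Figure D2:**
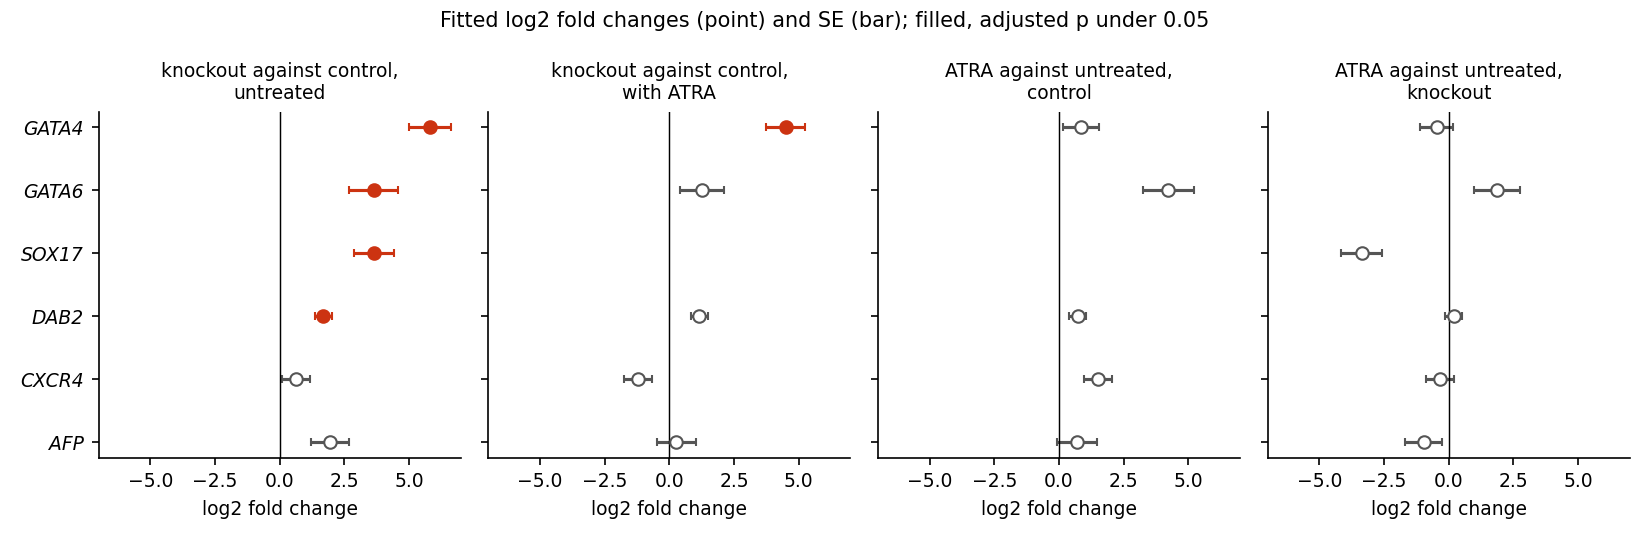
Fitted log2 fold changes (point, horizontal axis) with their SE (bar) for the 6 tested endoderm genes in 4 comparisons; filled points have an edgeR adjusted p under 0.05. SOX17 is left out where the control with ATRA, which had no counts, enters. GATA4 stands at 5.81 and 4.50 in the genotype comparisons and within 1 of 0 in the ATRA comparisons, where GATA6 stands at 4.23 and 1.87.

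Levels of different genes can be set side by side only per length, here as CPM per kilobase of the deposited gene length. In the untreated control the order of means was CXCR4 at 2.46, DAB2 at 1.11, GATA6 at 0.215 and GATA4 at 0.152 CPM per kilobase. In the untreated knockout GATA4 was first at 8.66, ahead of CXCR4 at 3.84, DAB2 at 3.55 and GATA6 at 2.66. In the knockout with ATRA GATA6 was first at 9.70, ahead of GATA4 at 6.31. SOX17, AFP, FOXA1 and FOXA2 were each at or below 0.348 CPM per kilobase in each group. In bulk RNA, fewer cells that express a gene and less of its RNA per cell cannot be told apart.

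Counted together, 4 of the 6 tested members were called in untreated cells and 1 with ATRA, all of them higher in the knockout, where 13% and 3.27% of all genes were called higher. SOX17, one of the 4, is also among the 5 members without overlap and in the medians below. It was tested only because the untreated knockout was high. AFP, also among the 5, passed the filter only with the help of 2 untreated knockout libraries. These counts and medians are therefore a description and no support. The median log2 difference of the 6 was 2.78 in untreated cells and 1.21 with ATRA, beside -0.11 and -0.06 over all genes tested. The median with ATRA is the same with SOX17 at the 2.79-fold difference from its floor of 3 counts. Libraries did not overlap between genotypes for 5 members in untreated cells and 3 with ATRA, all higher in the knockout, where 20.9% and 16.7% of all genes were higher without overlap. ATRA called no member in the control, where edgeR called 0.115% of all genes and 4 members had an unadjusted p under 0.05, and DESeq2 called 1 member, GATA6. ATRA called no member in the knockout either, where edgeR called 0.0314% of all genes, 1 member (SOX17) had an unadjusted p under 0.05, and DESeq2 called SOX17. Over all genes 2233 had an unadjusted edgeR p under 0.05 there, and DESeq2 called 554. The interaction of genotype and ATRA called no member in edgeR or DESeq2, 1 member (CXCR4) had an unadjusted p under 0.05, and edgeR called 0% of all genes, with 1868 genes at an unadjusted p under 0.05 and 13 called by DESeq2. The comparisons share groups: both genotype differences and both ATRA differences use the same 12 libraries.

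Other genes of the endoderm route were described from lists of related genes. Of 13 tested genes of the mesendoderm and definitive endoderm, 4 rose and 1 fell in the untreated knockout, and 2 rose with ATRA. That is 38.5% of the list in untreated cells, near the 34.9% of all genes called there in either direction, and 15.4% with ATRA, beside 7.51%. Of all genes 13% were called higher in untreated cells and 3.27% with ATRA. EOMES, a T-box factor at the start of endoderm formation, was 22.2-fold higher in untreated cells (edgeR adjusted p = 0.00304) and 9.59-fold higher with ATRA (adjusted p = 0.0273). It was at 14.5, 13.8 and 20.2 CPM in the untreated knockout, then 2.84, 1.03 and 2.23 CPM with ATRA. T (brachyury), the factor of the primitive streak, was 20.5-fold higher, with 30.0 CPM in untreated knockout library 3 against 2.92 and 3.40 CPM in libraries 1 and 2, and DESeq2 gave it no p-value. CDX2, a hindgut and trophoblast factor, was 6.85-fold higher, and KIT, a receptor used with CXCR4 to sort endoderm, was 4.10-fold lower. With ATRA, MIXL1, a homeobox factor of mesendoderm, was 3.99-fold higher (edgeR adjusted p = 0.0283). The median log2 difference of the list was 1.05 in untreated cells and 0.22 with ATRA.

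Of 15 genes of the extraembryonic endoderm and its basement membrane, 4 rose and 2 fell in the untreated knockout, and 3 rose with ATRA. That is 40% of the list in untreated cells, near the 34.9% of all genes called in either direction, and 20% with ATRA, beside 7.51%. Called higher were 13% of all genes in untreated cells and 3.27% with ATRA. The genes that rose encode basement membrane and matrix proteins: the type IV collagens COL4A1 (3.81-fold) and COL4A2 (3.92-fold), the matricellular protein SPARC (3.97-fold) and the nidogen NID2 (12.8-fold). With ATRA, COL4A2 was 2.94-fold, SPARC 3.07-fold and NID2 8.67-fold higher. NID2 was at 215, 206 and 71.4 CPM in the untreated knockout, then 143, 35.0 and 144 CPM with ATRA, so it was lowest in both odd libraries. The 2 that fell were PDGFRA, a growth factor receptor of primitive endoderm, at 2.88-fold lower, and AMN (amnionless), a visceral endoderm protein, at 4.43-fold lower, and neither was called with ATRA. The laminin genes LAMA1, LAMB1 and LAMC1, named after their values were seen because they too encode basement membrane, were at log2 differences of -0.19, 0.017 and -0.022 in untreated cells and did not pass the edgeR test. The median log2 difference of this list was 0.35 in untreated cells and -0.28 with ATRA. Of 8 tested genes of secreted yolk sac and fetal liver proteins, only VTN (vitronectin) rose, 22.5-fold, and TF (transferrin) fell, 3.51-fold, in untreated cells, which is 25% of the list and below the share of all genes, and edgeR called 0 with ATRA (3 at an unadjusted p under 0.05, 2 called by DESeq2). Over all genes with ATRA, 5376 had an unadjusted edgeR p under 0.05, and DESeq2 called 2964. The other 8 of the 16 listed genes were too low to test, ALB (albumin) among them with 0 to 7 counts per library.

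Of the 6 tested relatives and cofactors of the GATA factors, 3 rose in the untreated knockout and none fell, or 50%. Of all genes 13% were called higher and 34.9% in either direction. ZFPM2, a cofactor that binds GATA4, was 11.9-fold higher (edgeR adjusted p = 0.00811), ZFPM1 was 1.85-fold and GATA3 3.34-fold higher. With ATRA, ZFPM2 alone was called, at 7.61-fold, where 3.27% of all genes were called higher and 7.51% in either direction. ZFPM2 was at 3.13, 4.97 and 0.728 CPM in the untreated knockout, then 5.48, 0.646 and 4.35 CPM with ATRA, and the odd library was the low one in both. Of 13 tested heart genes that GATA4 and GATA6 also serve, 7 rose in the untreated knockout, none fell, and 2 rose with ATRA. These are 53.8% and 15.4% of the list, beside 13% and 3.27% of all genes called higher. In either direction 34.9% and 7.51% of all genes were called. HAND2, a heart and limb factor, had 0, 8 and 28 counts in the untreated control and 2742, 2713 and 483 counts in the untreated knockout, a log2 difference of 8.39 ± 1.20 (edgeR adjusted p = 0.00232). ISL1 was 16.5-fold, the natriuretic peptide gene NPPB 38.2-fold and the atrial myosin light chain MYL7 34.6-fold higher, and with ATRA HAND2 was 79.8-fold and the sarcomere protein ACTN2 4.44-fold higher. The medians of the heart list were 1.68 in untreated cells and 0.71 with ATRA.

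Among 8 relatives and partners of the members, 3 rose in the untreated knockout and none fell. The share called, 37.5% and all higher, stands beside 13% of all genes called higher and 34.9% called in either direction. DAB1, the neuronal relative of DAB2, was 2.10-fold, CXCL12, the ligand of CXCR4, 3.00-fold, and ACKR3, the scavenging receptor of that ligand, 4.59-fold higher. With ATRA only DAB1 was called, at 2.77-fold, or 12.5% of the list, beside 3.27% of all genes called higher and 7.51% in either direction. Of the 60 tested genes on these 6 lists, edgeR called 0 for ATRA in the control (29 at an unadjusted p under 0.05, 14 called by DESeq2), 0 for ATRA in the knockout (10 and 1) and 0 for the interaction (6 and 0).

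**Figure D3:**
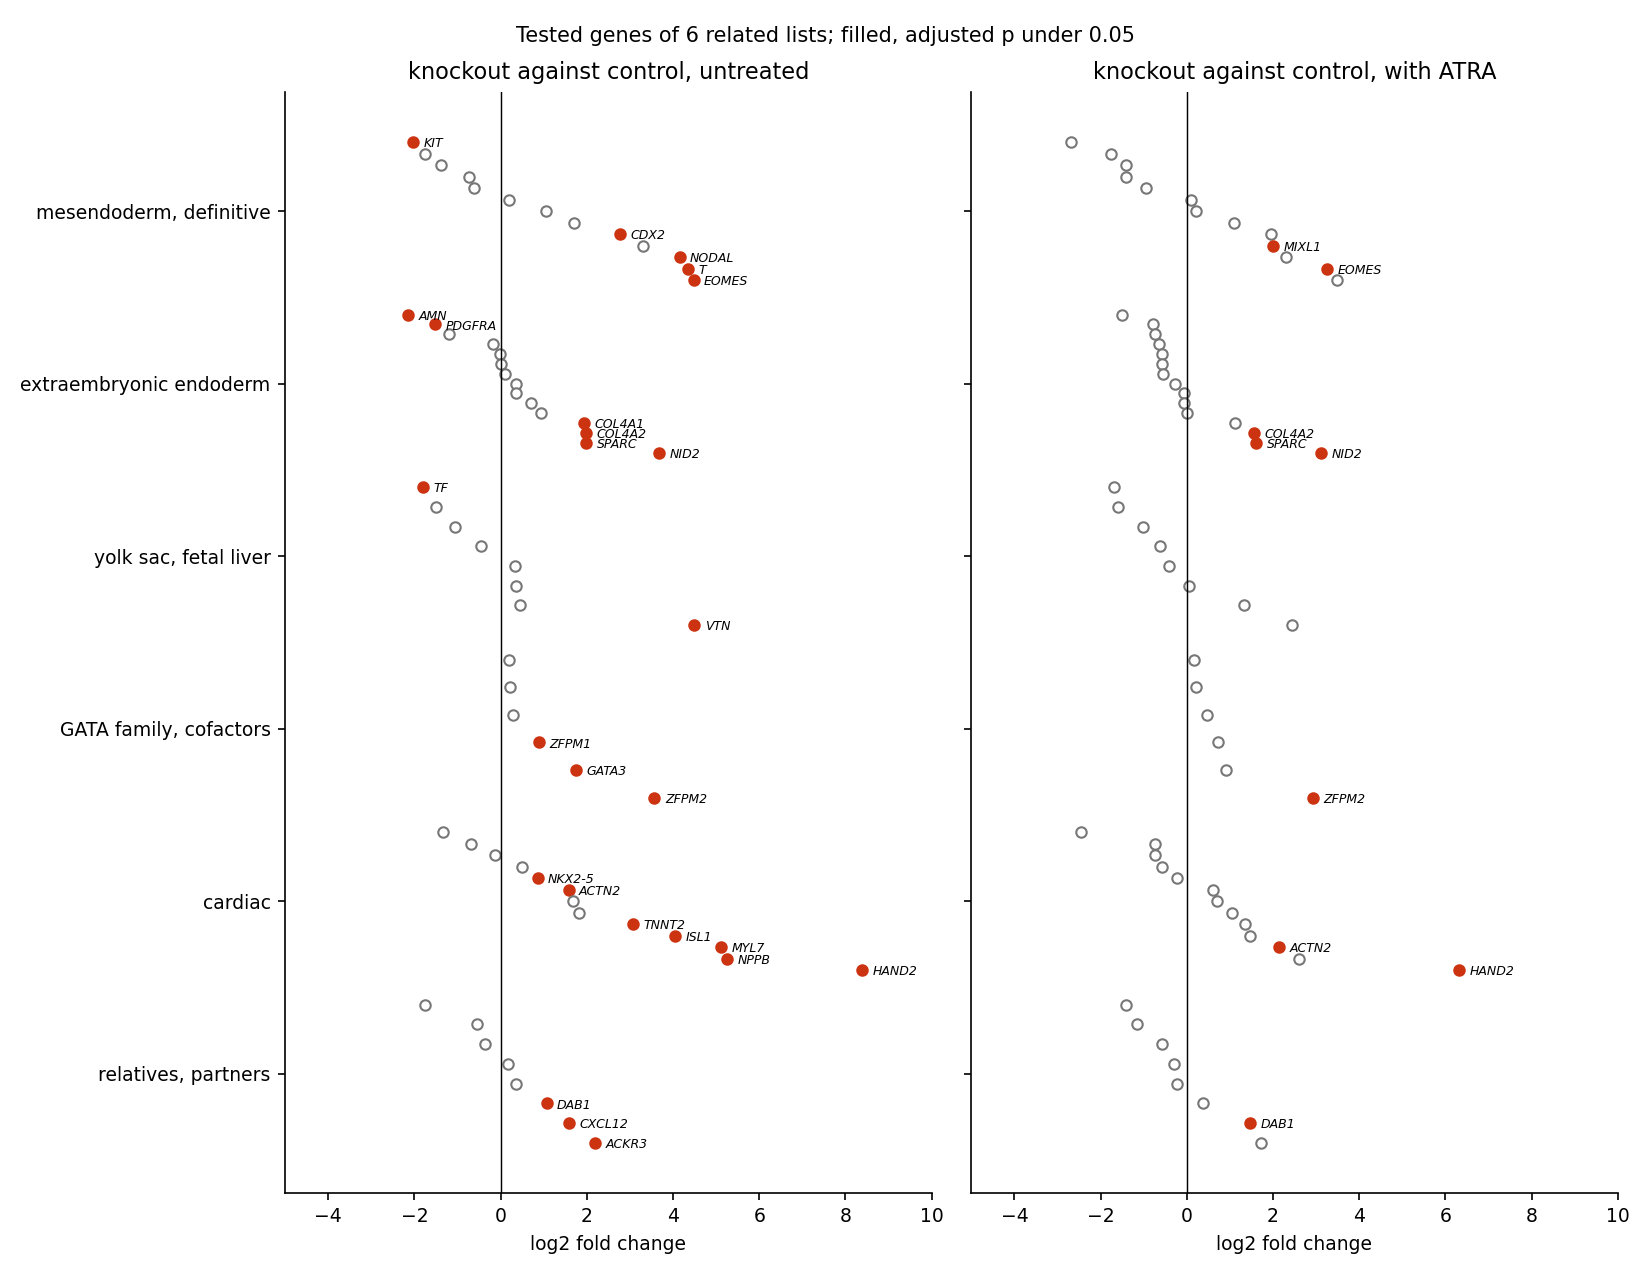
Fitted log2 fold changes (horizontal axis) of the tested genes of 6 related lists (vertical axis; within a list, genes are stacked by value), for the genotype comparison without and with ATRA; filled, named points have an edgeR adjusted p under 0.05. HAND2 is farthest to the right in both panels, at 8.39 and 6.32, and most open points lie within 2 of 0.

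Markers of other cells that a culture could hold were read in the same libraries. Of 9 fibroblast markers, 6 were called higher in the untreated knockout and 3 with ATRA, where 13% and 3.27% of all genes were. None of the 9 was at 0 in any group. They summed to 436 to 537 CPM in the untreated control, 2245 to 13916 in the untreated knockout, 264 to 1503 in the control with ATRA and 2253 to 12424 in the knockout with ATRA. The lowest sum of each knockout group was that of the odd library. COL3A1, chosen after its values were seen because it leads this sum, was at 10570, 10915 and 1319 CPM in the 3 untreated knockout libraries and at 10266, 1670 and 10144 CPM in those with ATRA. DCN, also chosen after its values were seen though far below COL3A1, was at 22.5, 17.9 and 0.128 CPM and at 27.9, 0.264 and 26.4 CPM. The 3 markers not called in untreated cells were THY1 (log2 difference 0.042), COL1A2 (1.46) and POSTN (2.29), and with ATRA THY1 was at -0.41. The members did not all follow this split, since GATA4 and SOX17 were highest and GATA6 lowest in untreated knockout library 3, while in knockout ATRA library 2 GATA4 was low and GATA6 level with the others. With untreated knockout library 3 and knockout ATRA library 2 left out together, the same 4 members were called in untreated cells, and GATA4 and SOX17 with ATRA. Over all genes that fit called 4467 in untreated cells and 881 with ATRA. This pair was chosen after seeing the data. SOX17 was tested only through the untreated knockout and had no counts in the control with ATRA, so its calls are no support. The libraries left out there are those with the lowest fibroblast sums of the knockout groups, so that fit does not bear on these markers, and their part in the members' differences was not tested.

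Of 7 hepatocyte markers, 3 could be tested, none was called by edgeR in untreated cells (0 at an unadjusted p under 0.05, 0 in DESeq2), and the 7 summed to 8.25 to 21.2 CPM per library. Of 8 trophoblast markers, 4 could be tested and none was called there by edgeR (0 at an unadjusted p under 0.05, 0 in DESeq2). Of 4 tested neural progenitor markers, 3 were lower in the untreated knockout and none higher, and of 11 embryonal carcinoma markers 2 were lower, SOX2 and LIN28B. Of 7 tested endothelial and blood markers, 1 was higher and 2 were lower. Of all genes tested, 21.9% were called lower there and 13% higher. The embryonal carcinoma markers called are 18.2% of their list, near the share of all genes called lower. Base composition also separated the genotypes: the rank correlation of a gene's level in a library, relative to its mean, with its GC content was -0.385 to 0.0920 in the control libraries and 0.132 to 0.471 in the knockout libraries. With that trend removed, GATA4, GATA6, SOX17 and DAB2 were called in untreated cells and AFP in addition. Over all genes 3266 were called in that fit and 6676 in the main fit, with 2664 in both. SOX17 and AFP are under the limit given above, that the untreated knockout helped them to be tested. The part of base composition in the members' differences was not tested.

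**Figure D4:**
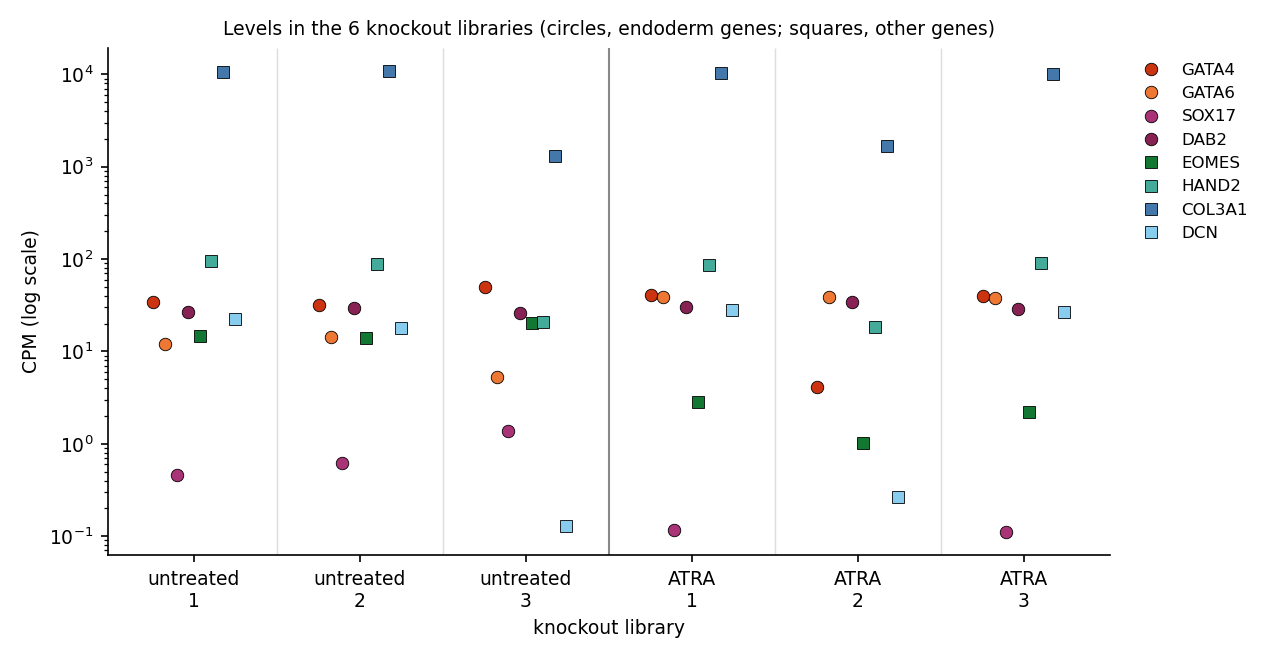
Levels in CPM (vertical axis, log scale) of 4 endoderm genes (circles) and 4 other genes (squares) in each of the 6 knockout libraries (horizontal axis); SOX17 had no counts in ATRA library 2 and is not drawn there. DCN falls from 22.5 and 17.9 CPM to 0.128 CPM in untreated library 3, where GATA4 is at 49.3 CPM, and DAB2 stays between 26.1 and 34.4 CPM in all 6.

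Across the 12 libraries the members went together in part. Pearson's r of log2 CPM was 0.875 for GATA6 and DAB2, 0.854 for GATA4 and DAB2, and 0.653 for GATA4 and GATA6, and it was 0.0709 for GATA6 and SOX17. These values describe libraries that share genotype, treatment and base composition and are no test. Among the genes most like GATA4, of 14317 compared, were CD48 (r = 0.973), PROK1 (0.969), ZNF843 (0.963) and KIFC3 (0.962). CD48 is an immune cell adhesion protein and PROK1 a secreted peptide. The genes most like GATA6 were GDF6 (0.982), a growth factor of the BMP family, and EPHB3 (0.981), an ephrin receptor. For DAB2 they were KLC4 (0.991) and EPHA2 (0.985), for SOX17 T (0.925) and MICB (0.924), for CXCR4 CTNND2 (0.922) and LIPG (0.881), and for AFP ETS1 (0.922) and RASA3 (0.903). GDF6 was at 28.8, 30.1 and 20.5 CPM in the untreated knockout, then 37.7, 7.49 and 38.6 CPM in the control with ATRA, with the same low libraries as GATA6.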

How the data were processed

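Per the labels' protocols, stranded mRNA libraries were made from NT2/D1 RNA (Illumina TruSeq). The authors deposited raw counts per gene, 1 column for each of the 12 libraries, with a gene length used only for levels per kilobase. Per the submitters' processing notes, bcl2fastq, TopHat2, Subread, featureCounts and DESeq2 were used with hg19 and GRCh37; versions, annotation and strand setting were not given in the sources used, and genes with near-identical copies or overlapping neighbours may share reads.

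From these counts, the filter filterByExpr of edgeR at a minimum count of 10 kept 19130 genes and 6 of the 8 members. After TMM scaling, all 12 libraries entered 1 quasi-likelihood model, with a coefficient for each group (edgeR 4.0.16, R 4.3.3), and 5 contrasts were tested. Every adjusted p is by Benjamini-Hochberg over all genes tested, and a gene was called under 0.05. The biological coefficient of variation was 0.367. Intervals and the floor of 3 counts cover counting error only. The fit was tested on simulated data.

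Named genes are PRMT6, the 8 members, tested neighbouring or antisense transcripts, up to 4 called genes of each related list with the smallest adjusted p, and the 5 (GATA4) or 2 (other members) genes with the highest Pearson correlation over the libraries, prior count 2. A result that this rule names is not reported here. The members and the 13 other lists were chosen with earlier results of these data known. Alternatives were RLE scaling, DESeq2 1.42.0, limma-voom 3.58.1, no filter and a stricter one (over 1 CPM in 3 libraries), the compared groups alone, the replicate number as a block, a fold of at least 2 (log2 of 1), nearly alike libraries summed, a GC trend removed (GENCODE 44 transcripts, matched for 85.6% of the genes tested), raw totals for CPM, and each library left out. Leaving out 2 pairs of libraries together was chosen after seeing the data.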

Additional observations from a re-analysis of the deposited data

How the results depend on the processing

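The number of members called in untreated cells, 4, ran from 3 to 5 over 24 settings, and from 4 to 5 with each library left out. GATA4 and DAB2 were called in all 24 and GATA6 in 23. SOX17 was called in the 23 that tested it, but under the main filter it was tested only through the untreated knockout libraries. With ATRA the count of 1 became 2 under RLE scaling, DESeq2, limma-voom, no filter, the stricter filter and the GC trend removed, with DAB2 added each time. It was 0 with the nearly alike knockout libraries summed, and 1 to 2 with each library left out. Untreated control 2 and control ATRA 2 left out together gave 3. Untreated knockout 3 and knockout ATRA 2 left out together gave 2, GATA4 and SOX17. For ATRA in the control the count of 0 became 1 under DESeq2, 2 without the filter, 0 to 3 with each library left out, and 3 with the pair of control libraries left out. For ATRA in the knockout it became 1 under DESeq2, 1 without the filter, 2 with the compared groups alone and 1 with that pair left out, and stayed 0 with each library left out. For the interaction it was 0 in all 23 settings. Whether the replicate numbers pair the samples is not stated in the labels. Same-numbered libraries did not deviate together in every pair of any comparison, which cannot decide this at 3 libraries per group. With the replicate block 4, 1, 0, 0 and 0 members were called in the 5 comparisons, and 5772, 761, 4, 0 and 0 genes in all. Without the block the calls over all genes were 6676, 1437, 22, 6 and 0, with ranges of 1072 to 8453, 71 to 2964, 0 to 2457, 0 to 1336 and 0 to 135 over the settings. Calls higher with ATRA in the control were 86.4% of the 22, 71.4% of 7 with the GC trend removed, 53.1% of 1636 in DESeq2, 50.2% of 1407 without the filter, 46.7% of 2457 without untreated control 1 and 44% of 2419 without control ATRA 2.

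Directions turned only where a difference was not called. AFP between genotypes with ATRA, 0.27, was -0.032 in limma-voom and -0.54 to 1.08 with each library left out. AFP with ATRA in the control, 0.70, was -0.077 to 1.23 with each library left out. GATA4 with ATRA in the knockout, -0.46, was -0.82 to 0.060 with each library left out and 0.28 with untreated knockout 3 and knockout ATRA 2 left out together. The SOX17 interaction, 0.95, was -1.25 in limma-voom. The causes were not tested. Depth limits SOX17, AFP, FOXA1 and FOXA2, whose levels lie within a few counts of the floor in most groups.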
